A study of Ovis aries with 15 samples.

Results

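The BCL2 family comprises the proteins that decide at the mitochondrial outer membrane whether a cell enters apoptosis. A list of 10 of its genes was examined in RNA-seq libraries of the sheep mammary gland from late pregnancy and lactation. A member was a row of the deposited table that carries one of the 10 symbols, and 7 of the 24691 features did so, namely *BCL2*, *BCL2L1*, *MCL1*, *BAX*, *BAD*, *BCL2L11* and *BCL2L15*. The other 3 genes had rows under other names and are described beside the members, outside their counts. *BID* and *BBC3* were matched through the RefSeq gene ID in the feature names LOC101117837 and LOC101123490, and *BAK1* was taken to be the row named BAK, which lies between the neighbours *ZBTB9* and *ITPR3* on chromosome 20.

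The family holds proteins of opposing action. The guardians BCL2, BCL2L1 (BCL-XL) and MCL1 keep the membrane intact by binding the effectors BAX and BAK1, which otherwise assemble into pores and release cytochrome c, after which caspases are activated. The BH3-only proteins BAD, BID, BCL2L11 (BIM) and BBC3 (PUMA) report survival signals or damage to the guardians and effectors. The mammary gland is known for the removal of its secretory epithelium by apoptosis when milking stops, and members of the family are studied there as regulators of that loss.

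Mammary parenchyma was taken by needle biopsy from 2-year-old primiparous Romney ewes at day 135 ± 2.4 (SD) of gestation and at day 15 ± 1.27 (SD) post partum, and each library was made from 1 pool of total RNA from several ewes. The 9 late pregnancy and 6 lactation libraries fell into 3 dam nutrition groups, named by the pasture allowance of the ewes' own mothers in early gestation, which was ad libitum (HM), maintenance (MM) or sub-maintenance (LM), with maintenance feeding of these mothers afterwards in every group. The ewes themselves were all managed and fed alike, and each dam group held 3 late pregnancy and 2 lactation pools. The methods of the study give 3 ewes for each pool whereas the labels give 2 for a lactation pool, and the flock was biopsied in both states without a record here of which ewe entered which pool. The fits treat the libraries as independent although pools of the 2 states may share ewes, so p-values measure the spread between pools.

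Late pregnancy libraries held between 7597938 and 19823166 reads on genes and lactation libraries between 10352962 and 25679416. The milk protein share of the reads was 13.7% to 23.4% in the former and 71.3% to 75.8% in the latter, which left fewer reads for all other genes. Values between states are therefore given as CPM, read counts relative to a TMM-scaled library size, and a positive log2 change means more RNA in lactation. Of 13345 genes tested with edgeR's quasi-likelihood test, 9122 (68.4%) passed an adjusted p of 0.05, with 35.2% lower and 33.1% higher in lactation, and the median log2 change of all tested genes was -0.03. Every library held epithelial RNA, with the 6 luminal markers summing to between 1417 and 1736 CPM in late pregnancy and between 2290 and 2551 CPM in lactation.

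Of the 7 members, 6 had enough exon reads to be tested and 4 passed, a number to be read against the 68.4% of all genes. *BAX* and *BAD* were lower in lactation, *BCL2L11* and *BCL2L15* were higher, and *MCL1* and *BCL2L1* did not pass. *BCL2* had too few exon reads for the test. The median log2 change of the 6 tested members was 0.14. CPM did not overlap between the states for 2 of the 6, *BAX* (lower) and *BCL2L15* (higher), whereas 40.2% of all tested genes had no overlap. These directions are relative to the other genes of a library, since without TMM scaling the median of all genes was -1.94 and *BCL2L11* stood at -0.91, above that median but below 0, with 5 members called lower and 0 higher. Of the 3 genes under other names, *BAK1* and *BBC3* were lower in lactation and *BID* did not pass.

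**Figure D1:**
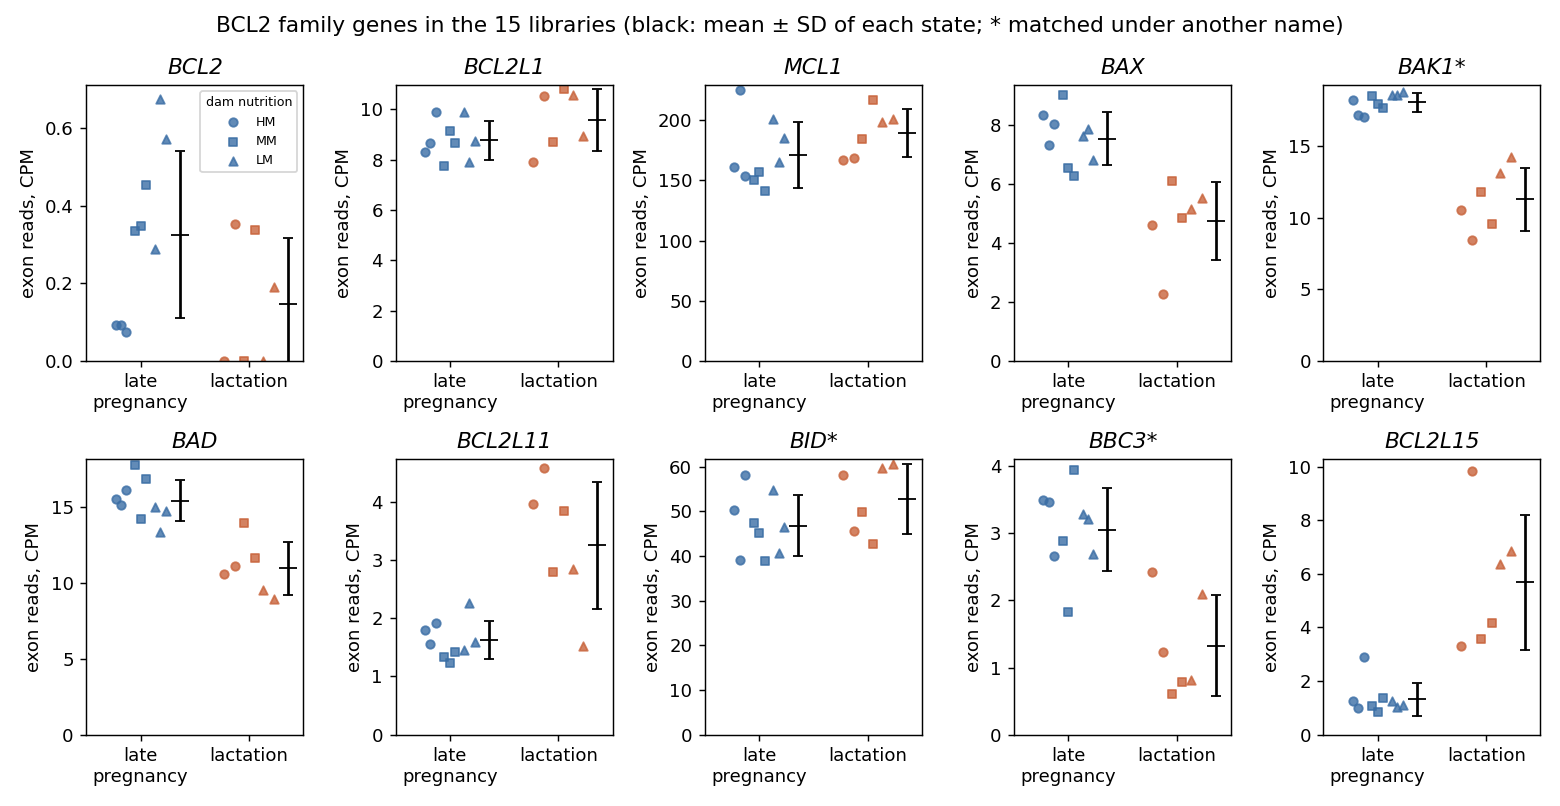
Exon reads (whole-gene reads for *BBC3*) in CPM (vertical axes, linear from 0) of the 10 listed genes in each of the 15 libraries, by state and dam nutrition group (marker shape), with the mean ± SD of each state in black. *BAX*, *BAK1* and *BCL2L15* show no overlap between the states, and the 9 late pregnancy pools of *BCL2L15* lie between 0.842 and 2.88 CPM against 3.30 to 9.85 CPM in lactation.

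Levels were compared between genes within a state as RPKM, exon reads corrected for exon length and for the reads on genes in the library. *MCL1* had the highest level of the 7 members in both states, at 72.3 ± 11.5 RPKM (SD, n = 9) in late pregnancy and 23.2 ± 2.07 RPKM (SD, n = 6) in lactation, and its range did not overlap that of the next gene in either. These RPKM are not compared between states, because the milk protein reads enter their denominator. In late pregnancy *MCL1* was followed by *BAD* at 24.0 ± 2.15, *BCL2L1* at 16.6 ± 1.37, *BAX* at 15.2 ± 1.61, *BCL2L11* at 2.58 ± 0.544, *BCL2L15* at 2.32 ± 0.981 and *BCL2* at 0.999 ± 0.692 RPKM. *BCL2L1* was above *BAX* in 6 of the 9 libraries, *BCL2L11* above *BCL2L15* in 7 and *BCL2L15* above *BCL2* in 8. The ranges overlapped in each pair, so that the order of these neighbours was not clear of the spread between libraries. The lactation order placed *BCL2L1* second at 5.25 ± 0.484 RPKM, then *BAD* at 4.96 ± 0.967, *BCL2L15* at 2.92 ± 1.21, *BAX* at 2.81 ± 0.834, *BCL2L11* at 1.5 ± 0.494 and *BCL2* at 0.124 ± 0.143. From *BCL2L1* to *BCL2L11*, each pair of neighbours in the lactation order had overlapping ranges, and *BCL2L15* was above *BAX* in 3 of the 6 libraries. By its mean *BID* would stand second in both states, at 29.9 ± 3.26 RPKM in late pregnancy and 9.85 ± 1.58 RPKM in lactation. Its late pregnancy range of 25.1 to 35.1 RPKM overlapped that of *BAD*, 22.1 to 27.8.

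Within a library, the share of each gene in the summed RPKM of the 7 members removes the effect of the milk protein reads. *MCL1* held 53.7 ± 4.39% (SD, n = 9) of the sum in late pregnancy and 56.9 ± 3.09% (SD, n = 6) in lactation. The share of *BCL2L15* was 1.76 ± 0.827% in late pregnancy and 7.21 ± 3.18% in lactation, and that of *BAX* was 11.4 ± 1.55% and 6.86 ± 1.91%. *BAD* held 18.0 ± 2.34% in late pregnancy and 12.2 ± 2.14% in lactation, while *BCL2L1* held 12.4 ± 1.22% and 12.9 ± 1.08%.

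**Figure D2:**
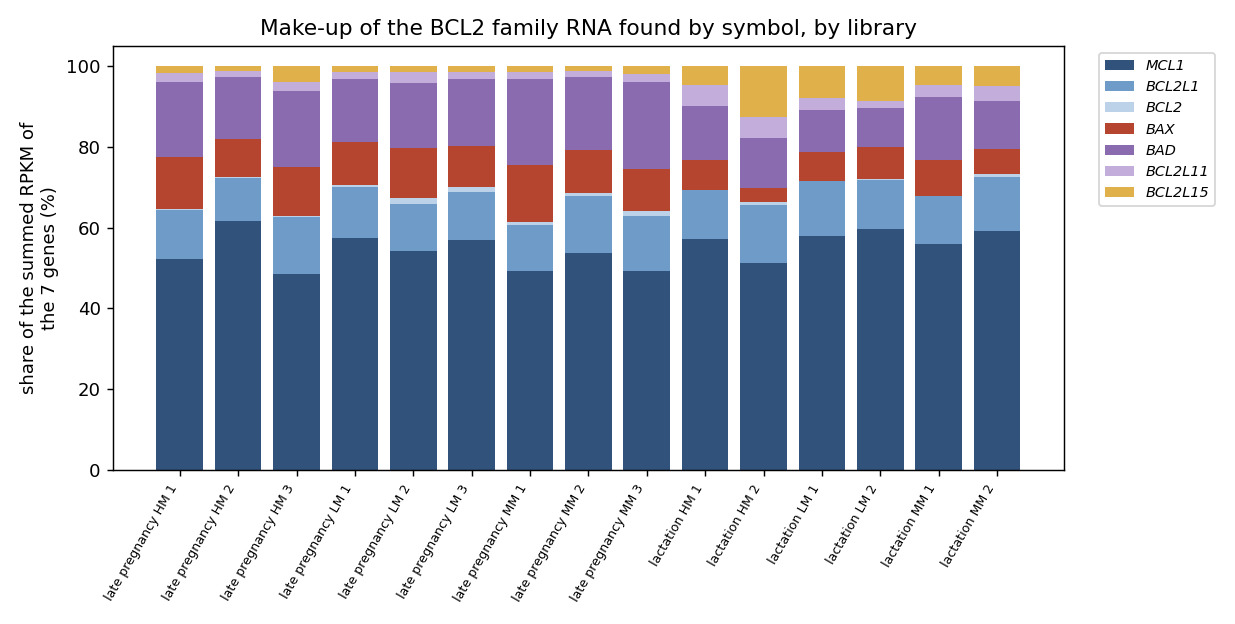
Share of each member in the summed RPKM of the 7 members found by symbol (vertical axis, percent) in each of the 15 libraries, with the libraries named by state, dam nutrition group and pool number. *MCL1* makes up 48.6% to 61.6% of the sum in late pregnancy and 51.2% to 59.8% in lactation, and the *BCL2L15* part is 1.16% to 3.86% and 4.58% to 12.7%.

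*MCL1*, a short-lived guardian whose protein is turned over quickly, lies on chromosome 1 from 99500982 to 99516259 of the sheep assembly Oar_v3.1 named in the processing notes, whose coordinates are used throughout, with 7 exons and 3417 bases of exon. Its CPM had a lowest value of 141, a median of 161 and a highest value of 225 in late pregnancy, and 167, 191 and 217 in lactation. The states overlapped, with the highest value of all in the late pregnancy HM pool 2. The log2 change was 0.15 ± 0.09 (SE, adjusted p = 0.161), and without that pool it was 0.21 (adjusted p = 0.0297). Reads that cross exon-exon junctions gave 0.35 ± 0.11 for *MCL1* (adjusted p = 0.00598), in a fit that called 64.3% of its genes, and the direction changed with upper quartile scaling and with quantile-normalized RPKM.

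*BCL2L1*, whose long isoform is the guardian BCL-XL, lies on chromosome 13 from 60531736 to 60581226, with 2 annotated exons of 763 bases in all. Its exon CPM ran from 7.73 over a median of 8.68 to 9.91 in late pregnancy, and from 7.91 over a median of 9.75 to 10.8 in lactation. The ranges overlapped almost completely, and the log2 change was 0.14 ± 0.09 (SE, adjusted p = 0.186). The test on exon reads thus called neither of the 2 abundant guardians, and both values were within 0.18 of the median change of all genes.

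*BCL2*, the founding guardian, lies on chromosome 23 from 61627640 to 61821263. The annotation gives this gene 193624 bases in all but only 483 bases of exon, in 3 exons of 1 transcript. Exon reads numbered 1 to 20 in the late pregnancy libraries (69 in all) and 0 to 3 in the lactation libraries (6 in all), so that every lactation library was at or under a floor of 3 reads. Reads on the whole gene were more numerous and gave a log2 change of -0.74 ± 0.17 (SE, adjusted p = 6.3e-04), in a fit that called 68.6% of its genes. *BCL2* therefore fell where the reads outside its annotated exons were counted, and its exon reads alone were too few to show a change at this depth.

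The effector *BAX*, which moves from the cytosol to the mitochondrion to form pores, lies on chromosome 14 from 54569732 to 54573251, with 6 exons of 714 bases. Its CPM ran from 6.27 over a median of 7.63 to 9.03 in late pregnancy and from 2.29 over 5.0 to 6.09 in lactation. All 6 lactation pools were below all 9 late pregnancy pools, and the lactation HM pool 2 was lowest with 13 reads. *BAX* fell by 0.64 ± 0.14 on the log2 scale (SE, adjusted p = 6.0e-04), and without that pool the log2 change was -0.51 (adjusted p = 7.8e-04). By dam group, log2(CPM + 1) was lower in lactation by 1.05 in HM, 0.35 in MM and 0.41 in LM.

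The row named BAK was taken as *BAK1*, the effector that resides in the mitochondrial membrane. It lies on chromosome 20 from 7804788 to 7824223 and overlaps the feature LOC101118141, so that reads of the 2 features could have been split between them. CPM were 17.1 to 18.8 with a median of 18.3 in late pregnancy, and 8.44 to 14.3 with a median of 11.2 in lactation. The late pregnancy pools were close together and all lay above the lactation pools, and the gene fell by 0.68 ± 0.09 on the log2 scale (SE, adjusted p = 9.6e-07). Both effectors were thus lower in lactation, relative to the other genes of the library.

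Of the BH3-only genes, *BAD*, whose protein is held inactive by phosphorylation while growth factors are present, lies on chromosome 21 from 41882286 to 41895378, with 4 exons of 928 bases. Its CPM ran from 13.3 over a median of 15.1 to 17.7 in late pregnancy and from 8.95 over 10.8 to 13.9 in lactation. Only the lactation MM pool 1, at 13.9 CPM, reached into the late pregnancy range. *BAD* fell by 0.47 ± 0.09 on the log2 scale (SE, adjusted p = 1.9e-04).

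*BCL2L11*, which encodes BIM, a BH3-only protein able to bind every guardian, lies on chromosome 3 from 105207550 to 105251457, with 5 exons of 909 bases. Its CPM were 1.24 to 2.26 in late pregnancy with a median of 1.55, and 1.52 to 4.57 in lactation with a median of 3.34. The lactation LM pool 2, with 8 reads and 1.52 CPM, lay inside the late pregnancy range, and the other 5 lactation pools were above it. The gene rose by 0.99 ± 0.20 on the log2 scale (SE, adjusted p = 1.8e-04), which is 1.99-fold. Exon reads numbered only 17 to 67 in late pregnancy and 8 to 34 in lactation. Over the libraries whose column name gives lane 8 the log2 change was 0.71 (adjusted p = 0.0518 with edgeR), against 1.30 (adjusted p = 0.00161) over those of lane 7. All LM libraries were of lane 8 and most HM libraries of lane 7, so that lane and dam group are largely confounded. Within dam groups, each with 3 late pregnancy and 2 lactation pools, log2(CPM + 1) was higher in lactation by 0.93 in HM and 0.88 in MM. In LM the rise was 0.18, with overlap.

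*BID*, a BH3-only protein that links death receptors to the mitochondrion, was read from LOC101117837 on chromosome 3 from 213125814 to 213154051. Its CPM were 38.9 to 58.2 in late pregnancy and 42.6 to 60.7 in lactation, with overlap over most of the range. The log2 change was 0.17 ± 0.10 (SE, adjusted p = 0.140). *BBC3*, which encodes PUMA, was read from LOC101123490 on chromosome 14 from 53298213 to 53313601. This feature has no annotated transcript, so its reads are those on the whole gene, 36 to 95 in late pregnancy and 6 to 11 in lactation. Its CPM ran from 1.83 over a median of 3.21 to 3.94 in late pregnancy and from 0.609 over 1.02 to 2.42 in lactation. *BBC3* fell by 1.36 ± 0.27 on the log2 scale (SE, adjusted p = 1.4e-04), with 2 lactation pools inside the late pregnancy range. The size of this change depended on the scale. Limma on quantile-normalized RPKM gave log2 changes of -0.55 with a pseudocount of 0.1 (adjusted p = 0.00775) and -0.11 with a pseudocount of 1 (adjusted p = 0.0159). These RPKM lay between 0.0437 and 0.244 for *BBC3*. With no annotated exon, its reads are divided by the whole span of 15389 bases, which makes its RPKM low for its number of reads. The pseudocount of 1 exceeds all of its quantile-normalized RPKM. What made the change smaller than in CPM was not tested.

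*BCL2L15*, a less studied relative of the family, lies on chromosome 1 from 90335173 to 90340054, with 4 exons of 809 bases. Its CPM ran from 0.842 over a median of 1.10 to 2.88 in late pregnancy and from 3.30 over a median of 5.27 to 9.85 in lactation. The late pregnancy HM pool 3 was the highest of its state, and every lactation pool was above it. *BCL2L15* rose by 2.13 ± 0.26 on the log2 scale (SE, adjusted p = 6.0e-07), a 4.37-fold difference, and leaving out that pool gave 2.32. By dam group, log2(CPM + 1) was higher in lactation by 1.40 in HM, 1.22 in MM and 1.84 in LM. Reads across exon-exon junctions, 8 to 26 in late pregnancy and 11 to 42 in lactation, gave 2.18 ± 0.27 (adjusted p = 2.2e-07).

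Reads on introns, counted as whole-gene reads minus exon reads, come in part from RNA that has not been spliced, and here they include any exon that the annotation lacks. Of 10344 genes tested in intron reads 58.0% passed, 29.0% in each direction, and of the 6 members tested 3 did. *BCL2L1* intron reads, in CPM of all intron reads, were 17.7 to 30.3 in late pregnancy with a median of 21.9 and 34.8 to 56.3 in lactation. The states did not overlap, and the rise of 1.01 ± 0.14 on the log2 scale (SE, adjusted p = 9.3e-07) was larger than the exon change by 0.91 ± 0.16 (adjusted p = 3.4e-05, edgeR's quasi-likelihood test of the difference in change, which called 33.4% of 9800 genes and this 1 of the 5 members tested). Introns held 17.5% to 27.7% of the *BCL2L1* reads of a late pregnancy library and 29.7% to 46.3% of those of a lactation library.

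*BCL2L11* rose in introns as it did in exons, by 1.22 ± 0.16 on the log2 scale (SE, adjusted p = 7.6e-07). Its intron CPM were 9.31 to 18.6 in late pregnancy and 26.8 to 35.0 in lactation, without overlap, so that the lactation LM pool 2, low in exon reads, was not low here. *BCL2* fell in introns by 0.79 ± 0.15 on the log2 scale (SE, adjusted p = 1.1e-04), from 35.4 to 51.7 CPM in late pregnancy to 14.9 to 41.6 CPM in lactation, where the HM pool 2 stood highest. Introns held 93.5% of its reads over the late pregnancy libraries and 95.8% over the lactation libraries. The intron reads of *MCL1*, *BAX* and *BAD* did not pass, with log2 changes of 0.01 ± 0.08, -0.48 ± 0.23 and 0.10 ± 0.22 (adjusted p = 0.961, 0.0827 and 0.723), and *BCL2L15* had too few to test. The difference between the intron and the exon change of *BAD* was 0.56 ± 0.22 (adjusted p = 0.0512).

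Of the genes outside the member counts, *BAK1* fell further in introns than in exons. It had 10 to 31 intron reads in a late pregnancy library and 1 to 3 in a lactation library, and its intron reads fell by 1.98 ± 0.33 on the log2 scale (SE, adjusted p = 1.5e-05). The intron change of *BAK1* was below its exon change by a log2 difference of -1.28 ± 0.37 (adjusted p = 0.00679), in a gene that overlaps another feature and has at most 3 intron reads in each lactation library. *BID*, not called in exons, gave -0.22 ± 0.08 in introns (SE, adjusted p = 0.0296), with overlapping states. That call was lost with scaling factors taken from the exon reads (-0.13, adjusted p = 0.215) and without the lactation HM pool 1, LM pool 2 or MM pool 1 (adjusted p = 0.0646, 0.0613 and 0.0521). The *BID* intron change differed from its exon change by -0.32 ± 0.09 (adjusted p = 0.00654), and this difference passed without each library in turn.

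**Figure D3:**
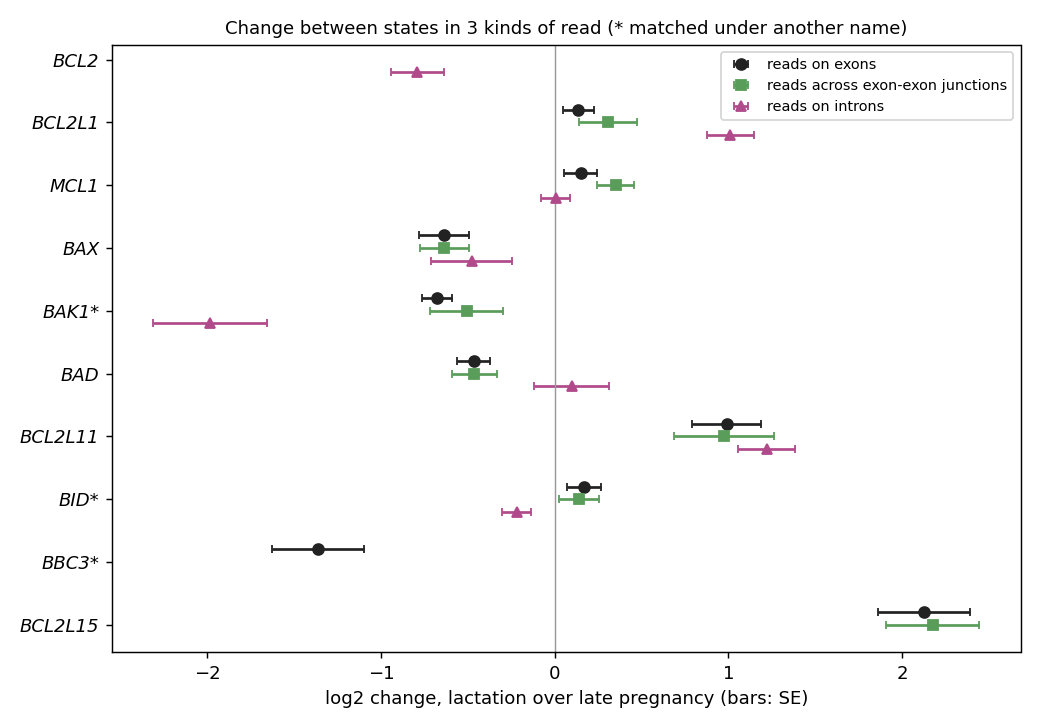
Log2 change of each gene, lactation over late pregnancy, in reads on exons (on the whole gene for *BBC3*), across exon-exon junctions and on introns (horizontal axis, bars are SE), where the gene was tested in that kind of read. *BCL2L1* is near 0 in exons at 0.14 and stands at 1.01 in introns, while *BCL2L11* is at 0.99 and 1.22.

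How much effector or BH3-only RNA there was for each guardian RNA was compared as the log2 ratio of exon reads per kilobase within a library, which needs no scaling between libraries. A total of 4 ratios were tested by an exact two-sided permutation test of the state labels and adjusted over the 4. *BAK1* to *MCL1* had a mean log2 ratio of -2.41 ± 0.22 (SD, n = 9) in late pregnancy and -3.25 ± 0.26 (SD, n = 6) in lactation, and no lactation pool reached the late pregnancy range. The difference of -0.85 had an exact p of 2.0e-04, the smallest that 9 against 6 libraries allow (adjusted p = 8.0e-04). *BCL2L11* to *MCL1* went the other way, from -4.80 ± 0.34 in late pregnancy to -3.99 ± 0.63 in lactation, a difference of 0.80 (exact p = 0.00799, adjusted p = 0.0160). The lactation LM pool 2 was again the exception, at -5.05, and the other 5 lactation pools lay above every late pregnancy pool.

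The other 2 ratios have *BCL2* as denominator, with 0 to 3 exon reads in lactation, and rest there on the 0.5 reads added to each count. *BAX* to *BCL2* had a mean log2 ratio of 4.14 ± 1.10 (SD, n = 9) in late pregnancy and 4.30 ± 1.74 (SD, n = 6) in lactation (exact p = 0.824). *BCL2L1* to *BCL2* was 4.26 ± 1.07 and 5.26 ± 1.33 (exact p = 0.136, adjusted p = 0.181). With reads on the whole gene, the *BCL2L1* to *BCL2* difference was 1.19 (exact p = 2.0e-04, adjusted p = 4.0e-04) and that of *BAX* to *BCL2* was 0.12 (adjusted p = 0.741). Introns held 93.5% of the *BCL2* reads in late pregnancy and 95.8% in lactation, against 23.7% and 37.6% for *BCL2L1* and 21.8% and 24.9% for *BAX*. The whole-gene ratios thus set mostly intron reads of *BCL2* against mostly exon reads, and do not stand in for the exon ratios.

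**Figure D4:**
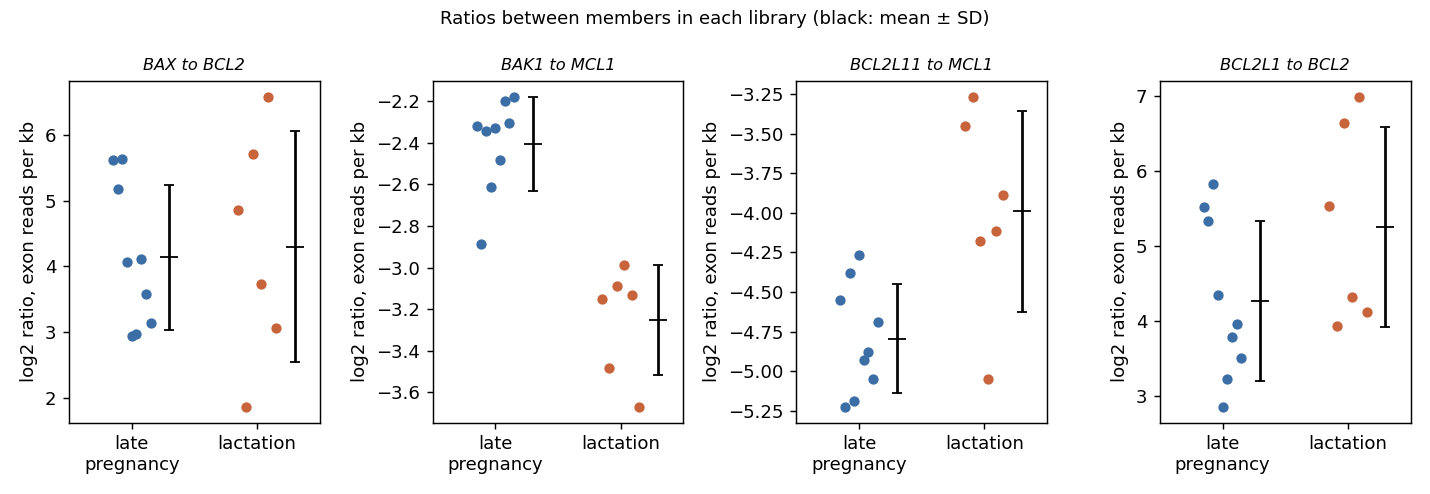
Log2 ratio of exon reads per kilobase (vertical axes) for 4 pairs of genes in each library by state, with the mean ± SD in black. The *BAK1* to *MCL1* ratio runs from -2.89 to -2.18 in late pregnancy and from -3.67 to -2.99 in lactation, and the pairs with *BCL2* spread widely in both states.

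Dam nutrition left no detectable difference in the members. By the column names all LM libraries were of lane 8 and most HM libraries of lane 7, and the tests by dam group had no lane term. Effects of lane and of dam group therefore cannot be fully told apart. The F-test over the 3 dam groups called 0 of 13747 genes (0.0%) in late pregnancy, where 571 (4.15%) had an unadjusted p under 0.05 and DESeq2 called 20. In lactation it called 1 of 11777 (0.00849%), with 7.61% at an unadjusted p under 0.05. This lactation count was 36 with DESeq2, 391 of 17602 genes without a filter on low counts, 5 without the lactation LM pool 2 and 20 without the lactation HM pool 2. The interaction of state and dam nutrition called 0 of 14073 (0.0%), with 913 (6.49%) at an unadjusted p under 0.05 and 14 called by DESeq2, and 10 genes were called without the lactation HM pool 2. No member passed in any of these 3 tests. The smallest unadjusted p of a member was that of *BCL2* in late pregnancy (adjusted p = 0.772 with edgeR). *BCL2* exon reads numbered 1 to 2 in the 3 HM pools, 7 to 8 in the MM pools and 8 to 20 in the LM pools. Its intron CPM in the same groups, 39.3 to 49.8 in HM and 44.5 to 51.7 in LM, overlapped between these groups. *MCL1* had the smallest p for the interaction (adjusted p = 0.773 with edgeR), with a mean in late pregnancy of 180 CPM in HM, 149 in MM and 184 in LM, and in lactation of 168, 200.4 and 199.9.

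For each tested member the gene with the most similar profile over the 15 libraries was found by Pearson's r of log2(CPM + 1) among 12257 other genes, as a description. *BCL2L15* was most like *S100A10* (r = 0.964), *BAD* most like *GADD45A* (r = 0.957) and *BAX* most like *MDP1* (r = 0.922). Genes above 0.9 numbered 337 for *BCL2L15*, 49 for *BAD* and 6 for *BAX*, so the gene named did not stand alone. The libraries share state, depth and composition, and after subtraction of the state means r was 0.825, 0.85 and 0.821. *BCL2L11* reached r = 0.90 with LOC101106554, and 0.73 after the state means were subtracted. *BCL2L1* and *MCL1* had no gene above 0.9, and their closest were *SNX15* (r = 0.846) and *SBDS* (r = 0.830).

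The genes that work with the family were read from lists of 73 genes in all, of which 68 had a row and 62 were tested. A total of 47 passed, with 14 lower and 33 higher in lactation, and the median log2 change of those tested was 0.20 against -0.03 over all tested genes, of which 68.4% passed, 35.2% lower and 33.1% higher. The split between directions moved with the scaling. Upper quartile scaling gave 19 lower and 25 higher (5990 and 3420 over all genes), limma on quantile-normalized RPKM 23 and 28 (5085 and 4111), and library size alone 59 and 2 (12705 and 352). The directions below are therefore relative to the other genes of a library, as scaled by TMM. Of 13 further BCL2 family genes 8 were tested, and 3 were lower and 1 higher. *BCL2A1*, a guardian known from leukocytes, fell by 1.79 ± 0.20 on the log2 scale (SE, adjusted p = 1.2e-07), from 5.0 ± 0.748 to 1.42 ± 0.626 CPM. *BCL2L14* and *BCL2L12* fell by 1.73 and 0.46, and *BCL2L13*, an outer membrane protein linked to mitophagy, rose by 0.31. *BMF*, *PMAIP1*, *BNIP3* and *BNIP3L* did not pass, with log2 changes of -0.46, 0.57, 0.21 and -0.14.

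Downstream of the mitochondrion, 10 genes of the apoptosome and mitochondrial release were tested, of which 3 fell and 2 rose (median log2 change -0.01). *HTRA2*, a mitochondrial protease, and *CASP9*, the initiator caspase of this route, fell by 0.51 and 0.37, and *AIFM1* and *MTCH2*, the latter a mitochondrial receptor for BID, rose by 0.69 and 0.48. Of 3 other caspases tested, *CASP8* and *CASP2* fell by 0.52 and 0.43, and *CASP6* rose by 0.50. Of 6 inhibitors of apoptosis, 2 were lower and 3 higher, with *BIRC5*, better known for its part in cell division, down by 3.23 ± 0.24 (SE, adjusted p = 2.5e-10) and *XIAP*, which blocks active caspases, up by 0.78 ± 0.16 (SE, adjusted p = 2.9e-04). *BIRC2* fell by 0.22 and *BIRC6* rose by 0.39. Among 8 death receptor genes, 2 were lower and 3 higher. *FASLG*, the FAS ligand of cytotoxic lymphocytes, fell by 3.04 at a low level, from 1.00 ± 0.185 to 0.114 ± 0.0945 CPM. *TNFSF10* fell by 0.75, while *FAS* rose by 0.66 and *CFLAR*, which restrains caspase 8, by 0.58.

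A list of stress genes and regulators linked to BH3-only genes holds activators such as *FOXO3* beside the ubiquitin ligase *MDM2* and its relative *MDM4*, which restrain the stress response, so its direction is not that of BH3-only induction. Of 8 tested, all 8 passed, 2 lower and 6 higher, against 4 higher with upper quartile scaling. *GADD45A*, a stress response gene, fell by 1.51 ± 0.26 on the log2 scale (SE, adjusted p = 3.4e-05) and *FOXO1* by 0.52. *FOXO3*, a transcription factor known to activate *BCL2L11*, rose by 1.84 ± 0.12 (SE, adjusted p = 5.9e-11), and *TRIB3*, a target of the stress factors ATF4 and DDIT3, went from 0.155 ± 0.126 to 12.0 ± 7.66 CPM. Of 14 partners and turnover factors of BCL2 family proteins, 12 were higher and 0 lower, with a median of 0.23, where 33.1% of all genes were higher. With upper quartile scaling 6 were higher and 1 lower, with limma on quantile-normalized RPKM 8 and 4, and with library size alone 1 and 13, so that the count of 12 holds for TMM scaling and most of these changes were small. *PIM1*, a kinase that phosphorylates BAD, rose by 4.17 ± 0.14 (SE, adjusted p = 1.8e-15), from 2.84 ± 0.825 to 51.2 ± 6.14 CPM, and *DYNLL1*, a dynein light chain that binds BCL2L11, rose by 0.58.

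The study named *BCAR1*, *BAG1*, *BAG3*, *BAG5* and *BEX2* together with *BCL2L15* from these same libraries, so that their direction is no independent evidence. All 5 were higher in lactation with TMM scaling (and lower with library size alone), by 1.31, 0.89, 1.58, 0.91 and 1.07 on the log2 scale. None of them belongs to the BCL2 family by sequence, and BAG1, BAG3 and BAG5 are known as co-chaperones of HSP70.

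**Figure D5:**
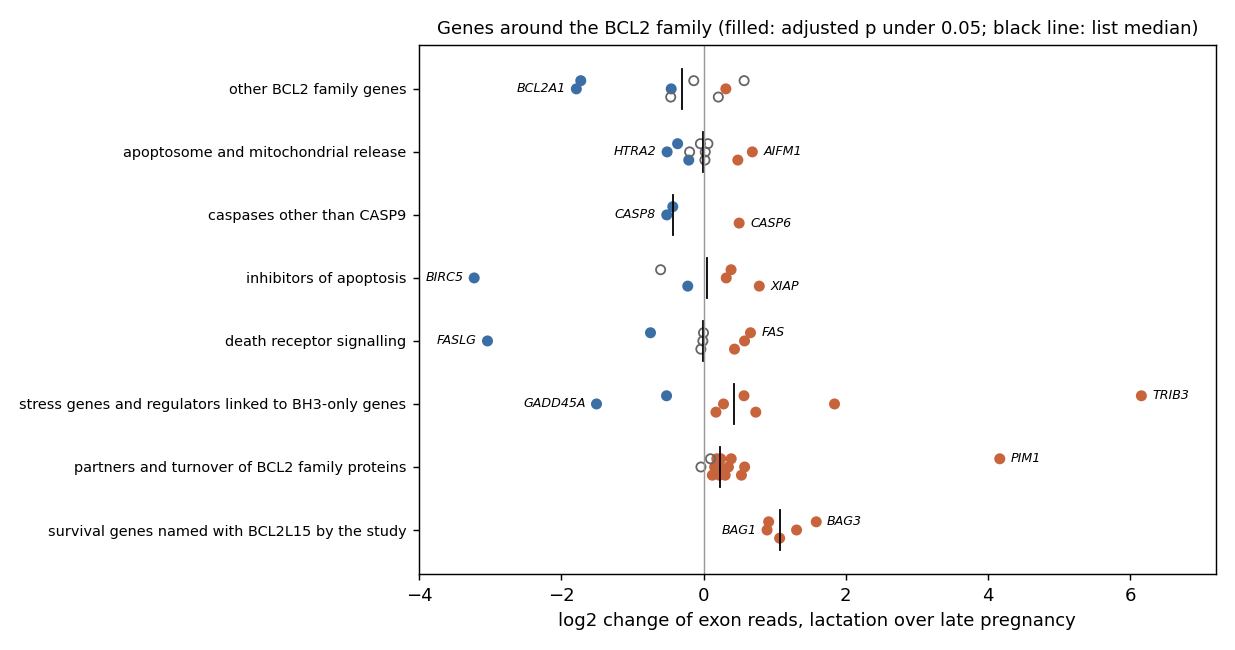
Log2 change in exon reads, lactation over late pregnancy (horizontal axis), of the tested genes of 8 lists around the BCL2 family, with filled points for an adjusted p under 0.05 (blue lower, orange higher), open points for the others, a black line at the median of each list and the outermost called genes named. The lists from the other BCL2 family genes to the stress genes and regulators hold called genes on both sides of 0, and the list of partners and turnover has 12 called genes above 0 and 0 below, a split that holds for TMM scaling and is 6 and 1 with upper quartile scaling.

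The cell types of the biopsies also differed between the states, and in bulk tissue fewer cells of a type and less RNA per cell cannot be told apart. All 5 T cell markers were lower in lactation, by 1.60 to 1.86 on the log2 scale, and their summed level was 41.0 to 67.5 CPM in late pregnancy and 13.4 to 19.9 CPM in lactation. Of 6 fibroblast markers 5 were lower, with sums of 1311 to 2092 and 618 to 998 CPM, and 4 of 5 endothelial markers were lower, with sums of 197 to 267 and 140 to 195 CPM. Of the 6 luminal markers 4 were higher and none lower, and of the 6 myoepithelial markers 3 were higher and 1 lower. The macrophage list, with 4 genes tested, had 2 lower and 1 higher, and no marker of these lists had 0 reads in all libraries. Adipocyte markers had 2 genes tested and 0 that passed (adjusted p = 0.347 and 0.725 with edgeR). B and plasma cell markers had 1 lower and 1 higher of 2 tested, and neutrophil markers 1 lower of 2. The part of these cell types in the lower *BCL2*, *BCL2A1*, *BAX*, *BAK1*, *BAD* and *BBC3*, or of the luminal cells in the higher *BCL2L11* and *BCL2L15*, was not tested.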

How the data were processed

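RNA-seq libraries of mammary tissue (TruSeq kit, Illumina Hi-Seq, paired reads) were mapped by the authors in CLC Genomics Workbench. The processing notes name Oar_v3.1 and the methods of the study another version of the sheep genome. The deposited counts are the authors' reads per gene on exons, on the whole gene and across exon-exon junctions, without normalization. The deposited RPKM are exon reads corrected by the authors for exon length and for the reads on genes in the library, recomputed here to within 1.9e-06 of their value. For features with no transcript they are whole-gene reads corrected for the span of the gene. The deposited normalized values are those RPKM after quantile normalization by the authors, unit RPKM. Coordinates, exon numbers and exon lengths are as in the deposited table. The authors' own fold change, p-value and mean columns were not used, and neither the strand setting of the counting nor its handling of overlapping genes is given in the sources used here.

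The members and gene lists were chosen with earlier results of these data known. Exon reads, or whole-gene reads for the 5583 features with no transcript, were tested with edgeR 4.0.16 in R 4.3.3 (filterByExpr by state, TMM, quasi-likelihood F-test without covariates, Benjamini-Hochberg over all tested genes, call at 0.05). Standard errors are the log2 change divided by the square root of F. Intron reads were tested in the same way for features with a transcript. The intron change was set against the exon change in 1 edgeR model with the library as a term, an addition made after the data were seen, as were the junction, lane and whole-gene ratio fits. Dam nutrition was tested within each state and as an interaction over the 15 libraries. Ratios used exon reads plus 0.5 and exact permutation in Python 3.11.15 with scipy 1.17.1. Alternatives used DESeq2 1.42.0 and limma 3.58.1. The fits were tested on simulated data. RefSeq gene names were matched by gene ID for 4525 of 7615 LOC features and served for names and neighbours only. Genes named are all members, the most similar gene of each, all tested further family members, and of each list the called genes with the largest changes, at most 2 each way. Some genes of the lists are not reported here and enter no count of a list. Reads carry no molecular identifiers, so the spread between pools is the only error given. Pools of both states carry numbers, but no record here says that a number marks the same ewes, so no pairing was used. The correlation of pools with the same number was low, which cannot exclude pairing (see the closing section).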

Additional observations from a re-analysis of the deposited data

Results flagged for a closer look

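Among 28 sets of values examined, made of the 10 listed genes and 4 ratios in each state, 2 held a library far from the others by Dixon's criterion, and chance alone marks about 1 set in 20. The late pregnancy HM pool 3 had 2.88 CPM of *BCL2L15*, with a gap to the next pool of 0.669 of the range of its state on the log2(CPM + 1) scale. Its 39 exon reads included 26 across exon-exon junctions. The other 8 late pregnancy pools had between 0.842 and 1.36 CPM. The lactation HM pool 2 had 2.29 CPM of *BAX*, with a gap of 0.697 of the range, from 13 exon reads of which 11 crossed a junction. The same pool had the highest *BCL2L15* of all libraries at 9.85 CPM, the lowest *BAK1* of all at 8.44 CPM and the highest *BCL2L11* at 4.57 CPM. No member differed between dam groups in its change between states by the interaction test.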

How the results depend on the processing

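With library size alone as scaling, the median of all genes moved to -1.94, and the log2 changes of *BCL2L1*, *MCL1*, *BID* and *BCL2L11* turned to -1.77, -1.76, -1.73 and -0.91, with *BCL2L15* at 0.22. Relative to that median the members stood where they did with TMM, from -0.60 for *BAX* to 2.15 for *BCL2L15*. Upper quartile scaling, with a median of -0.18, gave -0.0130 for *BCL2L1* and -8.6e-05 for *MCL1*. Limma on quantile-normalized RPKM gave -0.11 for both *MCL1* fits (pseudocounts 1 and 0.1) and -0.0116 and -0.0122 for *BID*. The number of members called stayed within 4 to 5 when each library was left out, and the pathway genes called within 46 to 48. With at least 10 reads in every library *BCL2L11* was not tested. Reads on the whole gene called *BCL2L1* (0.41, adjusted p = 5.2e-05), and the libraries of lane 8 alone called *MCL1* (0.28, adjusted p = 0.0383). Depth limits *BCL2L11*, with 8 to 34 exon reads in a lactation library, and *BCL2*.

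Intron results near 0 changed sign. *MCL1* gave -0.0068 with DESeq2, -0.0441 without a filter, and -0.0272 to 0.0371 when 1 library was left out. *BAD* gave -0.0409 with the replicate block and -0.18 to 0.20 when 1 library was left out. *BAX* introns passed without the lactation HM pool 1 (-0.59, adjusted p = 0.0428) or MM pool 1 (-0.68, adjusted p = 0.0287). Members called in the intron comparison numbered 3 to 4 with 1 library left out. Members whose intron and exon change differed numbered 1 to 2, the second being *BAD*, which passed without the late pregnancy LM pool 2 or MM pool 2, the lactation HM pool 2 or the lactation MM pool 1 (adjusted p = 0.0362, 0.0485, 0.0366 and 0.0119).

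*BAX* to *BCL2* gave -0.24 with quantile-normalized RPKM and -0.29 to 0.65 with 1 library left out, below 0 without the lactation LM pool 1 (-0.11) or MM pool 1 (-0.29). The other ratios kept their direction and side when 1 library was left out, at -0.91 to -0.76 for *BAK1* to *MCL1*, 0.66 to 1.02 for *BCL2L11* to *MCL1* and 0.65 to 1.26 for *BCL2L1* to *BCL2*. Whole-gene reads, which for *BCL2* are mostly intron reads, gave 1.19 for *BCL2L1* to *BCL2*. Whether the pool numbers pair the libraries is not known. The deviations of pools with the same number correlated at -0.0232 to 0.0651 over 6 pairs. The highest correlations with another number were -0.0261 to 0.0845. The 2 lactation pools of a dam group deviate by opposite amounts from their mean, so this check cannot exclude pairing or shared ewes. With the number as a replicate block, 8464 genes and the same number of members, 4, were called between states. In the sign-flip test over 6 pairs with this block *BAK1* to *MCL1* was -0.81 (adjusted p = 0.125, from an exact p of 0.0313, the smallest that 6 pairs allow) and *BCL2L11* to *MCL1* was 0.87 (adjusted p = 0.188). No member was called by dam nutrition or the interaction under any alternative tried. Where no construction of the alternative shows it, the cause was not tested.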
